A study of Drosophila melanogaster with 2 samples.

Results

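Peaks just upstream of promoters that are one-directional by the annotation of protein-coding genes were drawn from a chromatin immunoprecipitation with sequencing (ChIP-seq) of whole adult Drosophila melanogaster males. The flies were a transgenic line that carries CG5204, the gene also named kmg (kumgang), with eGFP fused to the C terminus of its product, and an antibody against GFP was used. Both biological replicates belonged to the same group, the age of the flies is unknown, and no genotype, treatment or stage was compared. The labels list a possible control experiment, which was not analysed here, and chromatin had been broken by sonication into pieces of 200 to 800 bp. The sources used here give neither the promoter that drives the fusion nor the number of flies pooled per replicate. The peaks used were the 2868 on build dm6 kept by the irreproducible discovery rate (IDR), a filter on how well ranks agree between replicates. Of these, 910 (31.7%, 95% Wilson interval 30.1 to 33.5) had a summit 0 to 500 bp upstream of the nearest protein-coding start site with no protein-coding start site on the opposite strand within 500 bp of the summit. These 910 member peaks were assigned to 797 of 13968 protein-coding genes (5.71%). The other IDR peaks were 383 upstream peaks with an opposite start site that close (divergent pairs), 257 peaks downstream of a start site, and 1318 peaks over 500 bp from every protein-coding start site. Transcription was not measured. Among the IDR peaks the choice of members used positions only, so distance, strand and the lack of an opposite start site are given as descriptions. The IDR list itself was made by signal and by agreement between replicates, and the lowest signal in it was 42.5.

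Kmg, a protein with zinc fingers, has been studied in the male germ line, where it and the chromatin remodeller Mi-2 hold down genes that spermatocytes do not normally use. A one-directional promoter starts stable transcription of one gene from its core promoter, and the DNA in front of the start site is often free of nucleosomes and open to bound factors. In flies this stretch can hold the DNA replication-related element (DRE) bound by DREF, sites of the insulator protein BEAF-32, the element of the zinc finger protein M1BP (Motif 1 binding protein), or GAGA elements, while the TATA box and the initiator sit at fixed places next to the start site. In a whole fly, a site bound in few cells and a site bound weakly in many cells cannot be told apart.

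The sequence around the summits is shown for 2 sets, chosen to let the strongest sites and the searched elements be read directly. The first set is the DNA within 100 bp of the summit at 6 of the strongest member peaks, on arms 2L, 3L and 3R and on X, on the strand of the gene and 5′ to 3′. Each run ends no later than the base before the start site, so 3 of the 6 are shorter on their 3′ side. The coordinates on dm6 were chr3L:19590525-19590719 (minus strand) for CG14100, chr3R:23669755-23669955 (minus strand) for CG31145, chrX:2703853-2703991 (minus strand) for Ugalt, chr3R:31588437-31588637 (plus strand) for CG1635, chr2L:2221714-2221914 (plus strand) for papi and chr3R:5791687-5791878 (plus strand) for Hpf1. The summit is the base after the first 100 of each run. Capitals mark matches, on either strand, to the DRE, the BEAF-32, M1BP, E-box, Motif 7, TATA and GAGA elements and to the word ACAGTG, the word ACACTG and the word TGGGCGTA, all described with the motif results. By annotation the summits were intergenic except at papi, where the summit lay in an intron of papi itself in front of an internal start site, and at CG1635, where it lay in an intron of a noncoding antisense gene. The sequences are from the reference Release 6 genome of RefSeq.
CG14100: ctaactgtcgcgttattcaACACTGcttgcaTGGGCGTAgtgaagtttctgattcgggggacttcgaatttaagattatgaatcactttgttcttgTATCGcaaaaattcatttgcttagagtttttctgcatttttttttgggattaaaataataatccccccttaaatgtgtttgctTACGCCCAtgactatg
CG31145: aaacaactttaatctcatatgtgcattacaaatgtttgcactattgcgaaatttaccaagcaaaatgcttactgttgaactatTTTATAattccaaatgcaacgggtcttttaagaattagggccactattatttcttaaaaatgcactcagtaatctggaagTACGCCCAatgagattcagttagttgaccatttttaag
Ugalt: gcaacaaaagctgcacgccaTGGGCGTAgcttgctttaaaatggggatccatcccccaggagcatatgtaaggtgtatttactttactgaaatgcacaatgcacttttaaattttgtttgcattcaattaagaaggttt
CG1635: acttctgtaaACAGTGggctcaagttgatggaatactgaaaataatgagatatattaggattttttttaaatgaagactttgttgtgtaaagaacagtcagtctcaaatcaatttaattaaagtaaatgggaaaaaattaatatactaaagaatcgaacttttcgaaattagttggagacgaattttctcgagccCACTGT
papi: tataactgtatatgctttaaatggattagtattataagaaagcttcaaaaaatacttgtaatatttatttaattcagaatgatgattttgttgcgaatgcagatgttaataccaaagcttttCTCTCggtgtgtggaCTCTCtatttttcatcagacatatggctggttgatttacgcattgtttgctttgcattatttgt
Hpf1: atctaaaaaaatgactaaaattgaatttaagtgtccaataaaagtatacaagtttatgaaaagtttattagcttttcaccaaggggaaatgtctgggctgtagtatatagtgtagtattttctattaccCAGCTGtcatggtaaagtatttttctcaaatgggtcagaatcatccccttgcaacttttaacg

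The second set is the DNA within 50 bp of the summit at the strongest remaining member peak of these arms with, in that window, a DRE (eEF1gamma), an M1BP element (Rnp4F), a Motif 7 core (Sptr), an E-box (sgg) and a TATA box (Gapdh2), with capitals as before and the summit after the first 50 bases. Coordinates on dm6 were chr3R:29220058-29220158 (plus strand) for eEF1gamma, chrX:5322697-5322794 (minus strand) for Rnp4F, chrX:8464503-8464603 (minus strand) for Sptr, chrX:2646347-2646447 (plus strand) for sgg and chrX:15867930-15868030 (plus strand) for Gapdh2, and the Rnp4F run ends before the start site. The sgg summit lay in an intron of sgg, and the others were intergenic. A match is a description of the letters and not a site shown to be bound.
eEF1gamma: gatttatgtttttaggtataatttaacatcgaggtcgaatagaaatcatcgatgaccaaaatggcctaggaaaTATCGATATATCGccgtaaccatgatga
Rnp4F: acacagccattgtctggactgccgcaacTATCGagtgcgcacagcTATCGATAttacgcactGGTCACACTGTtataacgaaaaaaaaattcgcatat
Sptr: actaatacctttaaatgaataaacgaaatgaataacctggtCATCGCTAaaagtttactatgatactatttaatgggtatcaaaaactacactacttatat
sgg: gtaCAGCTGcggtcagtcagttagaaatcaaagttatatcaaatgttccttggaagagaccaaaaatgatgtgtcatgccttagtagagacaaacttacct
Gapdh2: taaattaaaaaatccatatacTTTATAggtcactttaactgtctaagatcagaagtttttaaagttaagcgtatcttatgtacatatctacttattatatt

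The strongest member peak lay in front of CG14100, a gene with no characterised product, on 3L from 19590426 to 19590819. Its signal was 766 in replicate 1 and 866 in replicate 2, and 1624 in the pooled list, with the summit 95 bp upstream in the run printed first. Signal is the value of the peak caller, on a scale that the sources used here do not give, and the replicate and pooled lists each have their own values. Both replicates placed this peak far above the members' median, which was 41.0 in replicate 1 and 44.3 in replicate 2. The peak in front of CG31145, uncharacterised as well, had 356 and 473 in replicates 1 and 2 and 832 pooled, on 3R from 23669654 to 23670050, 196 bp upstream. Ugalt, which encodes the transporter that brings UDP-galactose into the Golgi, had 357 and 388 and 736 pooled, on X from 2703719 to 2704045, with the summit 39 bp upstream. It was the strongest of the 91 members within 50 bp of their start site, and the next one there, at Ppcs (phosphopantothenoylcysteine synthetase, an enzyme of coenzyme A synthesis), had a pooled signal of 215.

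The strongest members served genes of unlike functions. mRpL41, a protein of the large subunit of the mitochondrial ribosome, had replicate signals of 504 and 503 and a pooled signal of 998 at a summit 145 bp upstream, on 2R from 15217583 to 15217941. eIF6, which keeps the large ribosomal subunit from joining the small one too early, had 405 and 534 and 937 pooled at 94 bp, on 2R from 23850244 to 23850565. CG1635 (uncharacterised) had 324 and 391, papi, a Tudor domain protein of the piRNA pathway, had 358 and 350, and Hpf1, whose human counterpart steers PARP enzymes toward histones, had 351 in each. Each of these 5 genes had both replicate values well above the upper quartile of members, which was 75.4 in replicate 1 and 77.2 in replicate 2. CG1888 (365 and 420), Drat (288 and 359) and aay, the phosphoserine phosphatase of serine synthesis (314 and 323), complete the leading members that had a region in both replicates. Sox14, an HMG-box transcription factor induced by ecdysone, ranked among them by pooled signal (780) and had 413 in replicate 2. Replicate 1 listed no region within 100 bp of the Sox14 summit, and its nearest region was 19820 bp away. At members with both values, the sum of the replicate signals had a median of 0.993 times the pooled signal. Whether replicate 1 had signal at Sox14 that its list leaves out was not tested.

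The members were stronger than IDR peaks as a whole, and weaker than the upstream peaks of divergent pairs, by their medians. The median pooled signal was 78.9 at members (quartiles 55.0 and 143, 95% interval of the median 75.2 to 85.8), against 98.7 at divergent pairs (quartiles 66.1 and 172), 70.6 downstream of start sites, 65.4 over 500 bp away and 73.0 over all IDR peaks. The interval of the members' median lies below the median of the divergent pairs, and its lower end is next to the upper end of the interval of all IDR peaks (71.0 to 75.1), of which the members are a part. Regions are not replicates of a condition, so these intervals cover the sampling of peaks only and no test was made. Among the 287 IDR peaks of highest signal, 113 were members, which is 12.4% of members, against 17.5% of divergent upstream peaks, 10.9% of downstream peaks and 5.99% of peaks over 500 bp away. By the q-values the authors deposited, 606 members (66.6%) had a false discovery rate of 5% or less, against 79.1% of divergent upstream peaks and 62.4% of all IDR peaks. The other 304 members had q-values above 0.05, up to 0.232, and the 228 weakest members, with signals of 42.5 to 55.0, were all among them.

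Because the IDR list keeps peaks whose ranks agree between replicates, the match of members between replicates follows largely from that choice and is given as a description. A region of each replicate list had its summit within 100 bp of 794 of the 910 members (87.3%), against 88.0% of all IDR peaks. The share was 95.6% among the 228 strongest members and 77.2% among the 228 weakest. Of the rest, 58 were matched in replicate 1 only, 55 in replicate 2 only and 3 in neither. Over the 794 members the median ratio of replicate 1 to replicate 2 was 0.961 (quartiles 0.770 and 1.21). The values differed by more than 2-fold at 74 of them (9.32%), against 11.6% of all IDR peaks with both values, and at 0 of the 95 matched members among the 100 strongest. Spearman's rho between the replicates was 0.794 across these peaks, which are not independent. The widest gaps were at weak members: CG17544 had 8.76 and 49.6 in replicates 1 and 2, CG8128 had 9.29 and 39.7, and Dh31-R, the receptor of the diuretic hormone DH31, had 47.2 and 10.2. Besides Sox14, the strongest members without a match in both were at bin3, whose nearest regions lay 123 and 121 bp away with signals of 136 and 177, and at bun, which had 138 in replicate 1 and its nearest region of replicate 2 at 9801 bp. These regions of bin3, with 136 and 177, were the ones matched to another bin3 member whose summit lay 204 bp away, so neither replicate listed a separate region for the stronger peak within 100 bp.

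**Figure D1:**
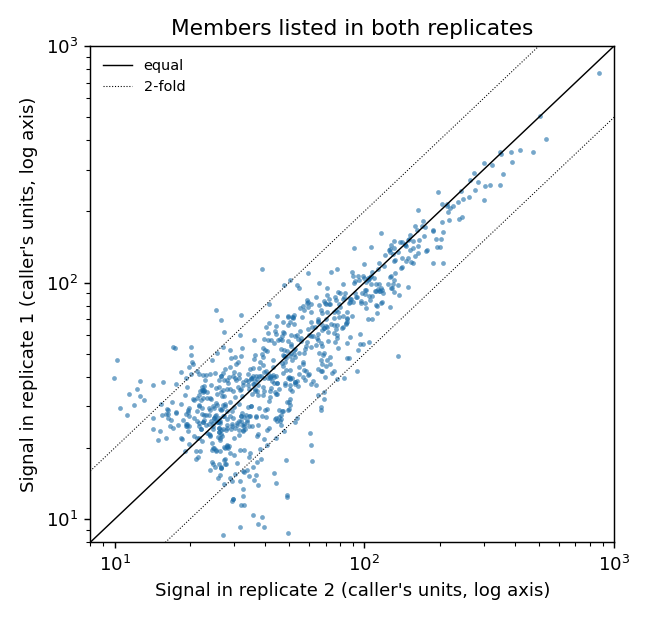
Signal of each of the 794 member peaks in replicate 1 (vertical) and replicate 2 (horizontal), both log axes in the caller's units, with 1 point per peak, a solid line of equality and dotted lines at 2-fold. The points narrow toward the line as signal grows, and the point at the upper right is CG14100 (766 and 866).

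Member summits were spread in front of the start site with a broad top between 75 and 249 bp. Bins of 25 bp held 65 to 74 members there, against 39 at 250 to 274 bp. The median distance was 194 bp (95% interval 179 to 204) with quartiles of 110 and 290 bp, and 4 summits, at RpL9, dao, CG31999 and viaf, lay on the start site itself. Grouped by distance, 91 members lay at 0 to 50 bp (1.78 per bp), 113 at over 50 to 100 bp (2.26 per bp), 271 at over 100 to 200 bp (2.71 per bp), 229 at over 200 to 300 bp (2.29 per bp), 124 at over 300 to 400 bp (1.24 per bp) and 82 at over 400 to 500 bp (0.820 per bp). The density thus had no peak at the start site, and it went on falling past the limit of 500 bp, with 42 such peaks at over 500 to 600 bp and 16 at over 900 to 1000 bp. The members closest to that limit were CG17111 at 499 bp (signal 65.0) and CG5973 at 500 bp (90.8), and just outside stood CG3348 at 503 bp (76.0) and t-cup at 507 bp (109). For the limit on opposite start sites, the closest members were at CG14968, whose opposite start site was 506 bp from the summit (173), and wdn, at 508 bp (46.7), and the closest peaks left out were at Gnpat, at 499 bp (55.3), and app, at 500 bp (246). Peaks thus lay close on both sides of each limit, and whether the members are a separate kind of peak was not tested.

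**Figure D2:**
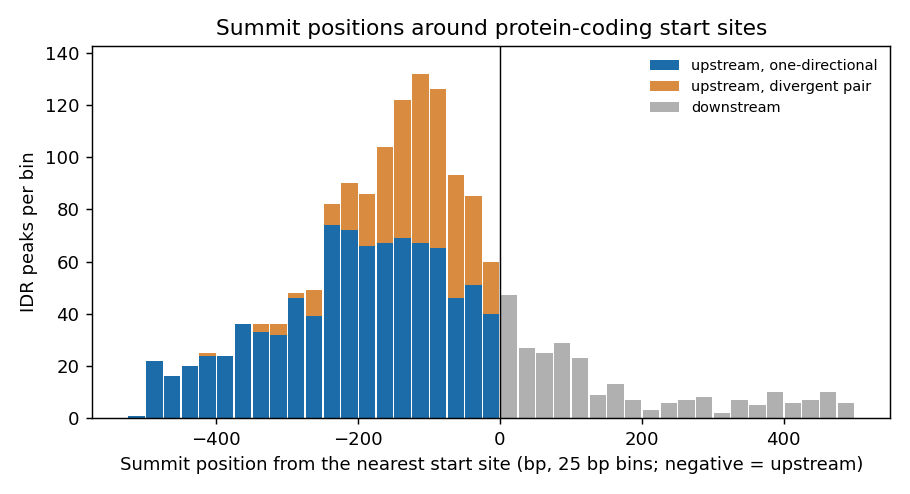
Number of IDR peak summits per 25 bp bin (vertical) by position from the nearest protein-coding start site (horizontal, bp, upstream to the left), with member peaks, upstream peaks at divergent pairs stacked on them, and downstream peaks. The 910 members spread over the upstream side and the 383 divergent peaks pile up nearer the start site. A divergent summit has start sites on both strands within 500 bp and takes the nearer, so its shorter distance follows in part from the rule.

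Strong members sat at intermediate distances. Of the 91 strongest members, 1 lay within 50 bp of the start site, 7 at over 50 to 100 bp, 41 at over 100 to 200 bp, 30 at over 200 to 300 bp, 9 at over 300 to 400 bp and 3 at over 400 to 500 bp. The median signal was 64.0 within 50 bp, 74.3 at over 50 to 100 bp, 92.3 at over 100 to 200 bp, 78.4 at over 200 to 300 bp, 83.8 at over 300 to 400 bp and 71.7 at over 400 to 500 bp. The median of the bin from 100 to 200 bp (95% interval 80.9 to 109) lies above the interval of the closest bin (57.3 to 79.0), while the 3 bins between 100 and 400 bp overlap in their intervals. Spearman's rho between distance and signal was 0.0603 over the 910 members. GC content within 100 bp of the summit moved with distance as well, with a mean of 41.0% in the closest bin and 33.8% at over 300 to 400 bp, and its part in the signal was not tested. Beyond 300 bp the strongest members were at Acsf2, an acyl-CoA synthetase (246 and 277 in replicates 1 and 2, 524 pooled, 364 bp upstream), and Msp300, a giant protein that ties nuclei to the cytoskeleton of muscle (230 and 263, 497 pooled, 350 bp upstream). Both are above the upper quartile of 143 for members.

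**Figure D3:**
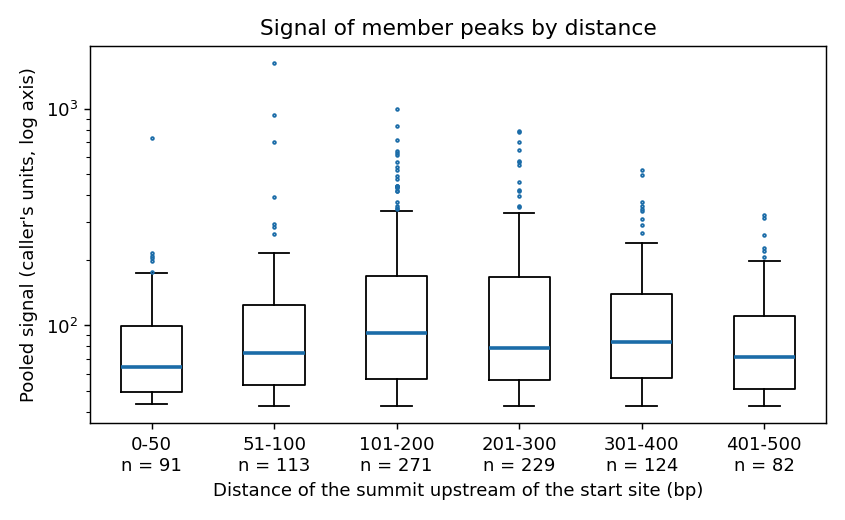
Pooled signal of the 910 member peaks (vertical, caller's units, log axis) by distance of the summit upstream of the start site in 6 bins (horizontal, bp). Boxes span the quartiles with the median in blue, whiskers reach 1.5 times the box and points lie beyond. The highest points stand in the bins between 50 and 300 bp.

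By annotation, member summits fell mainly between genes and in introns. At 64 members (7.03%), among them eIF6, aay and elav, the summit lay inside another protein-coding gene. The summit was intergenic at 512 members (56.3%), intronic at 319 (35.1%), in a 5′ untranslated region at 39 (4.29%), in another exon at 20, in a 3′ untranslated region at 15 and in a coding exon at 5. The start site was the outermost of its gene at 602 members (66.2%), with a median distance of 178 bp, and an internal start site, which lies further in than another start site of the same gene, at 308 (33.8%), with a median distance of 226 bp. The median signal was 86.2 at internal start sites, against 76.2 at outermost ones. Where the summit lay between protein-coding genes, the next gene upstream pointed the same way at 329 members, with a median gap of 818 bp between the genes, and the opposite way at 207, with a median gap of 2026 bp. An opposite protein-coding start site was over 2000 bp away at 701 members (77.0%), so most were not near misses of the divergent class. At 53 members (5.82%) the next gene upstream pointed the opposite way across a gap under 1000 bp. Among these were mRpL41, with a gap of 761 bp, and Ugalt, with 718 bp. A start site of a noncoding gene on the opposite strand lay within 500 bp at 42 (4.62%), among them eIF6, where an antisense RNA is annotated, and the median signal of these 42 was 103. Another IDR summit lay within 1000 bp of 228 members (25.1%), so neighbouring members are not independent of each other.

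Genes with a member had more alternative promoters than genes at large. Of the 797 genes, 454 (57.0%) had 2 or more annotated protein-coding start sites, against 26.5% of all protein-coding genes, and a gene with more start sites offers more places to be counted. A symbol made only of a CG number was held by 29.7% of the 797, against 43.7% of all. There was 1 member peak at 695 genes, 2 at 94, 3 at 5 and 4 at 3. The genes with 4 were larp, a La-related RNA-binding protein, Svil, the actin-binding supervillin, and dnc, the cyclic AMP phosphodiesterase dunce. At larp, on 3R, the peaks had replicate 1 and 2 signals of 164 and 206, 105 and 109, 46.2 and 56.8, and 47.5 and 36.2, and they served 3 of its 6 start sites. At dnc, on X, the pooled signals were between 59.5 and 206 at 3 of 9 start sites, and at Svil, on 3L, between 56.3 and 291 at 4 of 16. Rtnl1, which shapes tubules of the endoplasmic reticulum, had 3 peaks of 136 to 327. All 3 of these were at internal start sites.

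Along the chromosomes, the share of genes with a member was 5.42% on 2L, 5.50% on 2R, 5.18% on 3L, 5.64% on 3R, 16.2% on chromosome 4 and 6.74% on X, and 0 of 23 genes on Y. On chromosome 4 that was 13 of 80 genes (95% interval 9.75 to 25.8), and 14 of its 25 IDR peaks were members. The median signal there, 64.2, was below that of members on every other arm, where it lay between 77.0 and 86.0.

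Among gene groups, the 95% intervals of the share lay above the 5.71% of all protein-coding genes for cytoplasmic ribosomal protein genes and clock genes, and each of these depended on how promoters were defined. All gene lists were drawn up with earlier results of these data known. Their shares and intervals, those of the clock genes included, are therefore descriptions and not independent support. Of 92 cytoplasmic ribosomal protein genes 14 had a member (15.2%, 95% interval 9.29 to 23.9), with a median distance of 68 bp, against 194 bp over all members, and a median signal of 106. RpL24 led with replicate signals of 93.8 and 113 and a pooled signal of 205 at 32 bp, followed by RpS10b with 82.6 and 87.7 and 175 pooled at 71 bp, where a DRE stands within 100 bp of the summit. All 14 summits lay within 119 bp of the start site, and the lowest pooled signal was 43.5, at RpL10. With opposite start sites barred within 1000 bp the count was 8 (8.70%, 95% interval 4.47 to 16.2), an interval that includes the 5.10% of all genes under that definition. Of the 92 genes, 11 had an upstream peak of a divergent pair instead of a member and 5 a downstream peak. Over all 13968 genes these counts were 361 and 183, so peaks at ribosomal protein genes were not particular to the members. Among the other genes of the translation machinery, 1 of 73 mitochondrial ribosomal proteins (mRpL41), 4 of 52 translation factors, led by eIF6 and by eEF1gamma (139 and 127, 263 pooled at 64 bp), and 1 of 33 aminoacyl-tRNA synthetases (AlaRS, 60.0 pooled) had one.

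Of 13 circadian clock genes 6 had a member (46.2%, 95% interval 23.2 to 70.9), and each of them lay 204 bp or more from the start site. The strongest were cry, the blue-light receptor of the clock, with replicate signals of 174 and 159 and 332 pooled at 235 bp, and sgg, the kinase GSK3 that phosphorylates the clock protein Timeless, with 103 in each and 206 pooled at 240 bp. The transcription factor Pdp1 had 71.7 and 51.9 at 395 bp, and the clock gene per had 48.8 and 47.7 at 358 bp. The remaining peaks were weak: tim had 25.9 in replicate 2 and no match in replicate 1, and vri had 15.0 and 25.9. With 1 start site per gene the count was 2 (15.4%, 95% interval 4.33 to 42.2), with the lower end of the interval next to the 4.30% of all genes, and within 200 bp of the start site it was 0, against 3.29% of all genes.

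For each of the next lists the 95% interval of the share includes the 5.71% of all genes. Among organelle and transport genes, members were found at 4 of 33 vacuolar ATPase subunits (Vha16-1 with 132 and Vha68-2 with 100 pooled), 3 of 31 Rab GTPases (Rab5, the early endosome GTPase, with 190 and Rab26 with 111), 2 of 20 autophagy proteins (Atg8a with 82.7 and Atg16 with 55.0) and 1 of 15 peroxins (Pex2, 43.2). In energy metabolism and protein folding they were found at 1 of 87 subunits of oxidative phosphorylation (ND-MLRQ, 45.2) and at 2 of 27 heat shock proteins and chaperones, where both peaks were strong. Hsp83, the fly Hsp90, had 172 and 175 and 348 pooled at 122 bp, and the small heat shock protein Hsp27 had 138 and 125 and 267 pooled at 143 bp. In transcription and chromatin, members stood at 2 of 31 RNA polymerase subunits (Polr2F with 162 and Polr1B with 53.8), 1 of 25 Mediator subunits (MED21, 44.8), 1 of 25 general transcription factors (TfIIA-S, 93.7), 2 of 17 insulator and promoter factors (psq with 207 and BEAF-32 with 145) and 2 of 18 genes of remodellers and their partners (MEP-1, a Mi-2 partner, with 119 and osa with 56.8). Cell cycle and drug metabolism had 1 of 33 cyclins, Cdks and licensing factors (CycK, 70.2) and 5 of 85 cytochrome P450 genes (Cyp28d1 with 114 and Cyp6t1 with 84.2).

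The remaining lists, of tissue and housekeeping genes, ranged from 0 to 15.0% with a member, against 5.71% of all genes. The 95% intervals include that share for each of them except chemosensory genes, cuticle proteins (0 to 5.20) and replication-dependent histones (0 to 3.35), which lie below it. In the testis lists, 0 of 14 spermatocyte regulators had one, which allows a share of up to 21.4%, and 1 of 21 testis differentiation genes did, Mst87F, a sperm tail protein, with 24.7 and 19.8 and 45.8 pooled at 157 bp. Members stood at 3 of 20 neuronal genes, led by elav, the neuronal RNA-binding protein, with 182 and 171 and 353 pooled at 265 bp, and followed by Snap25 with 45.1. The 95% interval of both this list and the muscle list was 5.24 to 36.0. Members stood at 3 of 20 muscle genes (Mef2 with 62.0 and 27.5 in replicates 1 and 2, and sls with 40.2 and 44.3), and at 4 of 35 Hox and other developmental regulators (so with 70.1 and Dll with 63.8). Chemosensory genes had 2 of 230 (0.870%, 95% interval 0.239 to 3.11), Obp99b with 51.9 and Gr39b with 43.7. Lists with 0 members were cuticle proteins (70 genes, up to 4.29% allowed), accessory gland and seminal fluid proteins (47, up to 6.38%), replication-dependent histones (111 near-identical copies, an uncertain count), fat body genes (16, up to 18.8%), proteasome subunits (49, up to 6.12%), splicing factors (32, up to 9.38%), nucleoporins (21, up to 14.3%), mitochondrial import (15, up to 20.0%) and secretory coat proteins (26, up to 11.5%). Lists that had none in the pooled IDR list had at most 1 in the strongest regions of either replicate alone.

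Single replicates moved several of these small counts by over 1.5 times. Taking the 2868 strongest regions of replicate 1, without replicate 2, gave 7 translation factors, 3 subunits of oxidative phosphorylation, 2 cytochrome P450 genes, 2 cyclins or Cdks, 1 neuronal, 1 chemosensory, 0 Mediator, 1 proteasome, 1 nucleoporin and 1 coat protein gene. Taking those of replicate 2, without replicate 1, gave 3 mitochondrial ribosomal proteins, 2 cyclins or Cdks, 1 remodeller gene, 1 RNA polymerase subunit, 1 coat protein and 0 aminoacyl-tRNA synthetase, chemosensory, peroxin and testis differentiation genes. The ribosomal protein count was 16 without replicate 2 and 13 without replicate 1, and the clock count was 5 and 6 in those lists.

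Promoter elements were searched as exact words on both strands within 100 bp of each summit, beside equal windows 500 bp further upstream and 500 bp downstream. The words were TATCGATA for the DRE, CGATA for BEAF-32 (which also lies inside the DRE), GGTCACAC for M1BP, CAGCTG for the E-box, CANCNCTA and GTATNTTT for the cores of Motif 7 and Motif 6, TATAAA for the TATA box, TCAGT for the initiator, GAGAG for the GAGA element, TTCCCGC for E2F, TTTGAA for the CHR element and TGTCA for TGIF. DRE matches were at 4.95% of members (45 peaks), against 1.32% of upstream windows, 0.549% of downstream windows and 3.14% of all IDR peaks. M1BP matches were at 2.31% of members, against 0.549% and 0.33% in the upstream and downstream windows and 1.36% of all IDR peaks. Motif 7 matches were at 9.23%, against 5.16%, 4.29% and 9.55%, and Motif 6 matches at 11.6%, against 6.04%, 6.81% and 10.8%, for upstream windows, downstream windows and all IDR peaks. Of the shuffled words, each made of the letters of an element in another order, that of Motif 6 was also more frequent at members (8.68%, against 5.93% upstream and 5.82% downstream), as was that of M1BP (0.769%, against 0.440% and 0.220%), while those of the DRE (0.330%, against 0.549% and 0.440%) and Motif 7 (5.49%, against 7.36% and 5.71%) were not. The E-box (8.13%, against 8.02% upstream), the initiator (33.3%, against 30.1%) and the GAGA element (25.4%, against 26.7%) were about as common as upstream. BEAF-32 matches were at 30.0%, against 25.7% upstream, TGIF at 27.5%, against 26.3%, and E2F at 0.769%, against 2.09%. The upstream peaks of divergent pairs had higher shares than members of the DRE (8.09%), M1BP (2.87%) and Motif 7 (21.9%). The same held for Motif 6 (12.8%) and BEAF-32 (40.5%), so these elements were not particular to members. Initiator (26.1%) and GAGA matches (15.1%) were less frequent at divergent pairs than at members.

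Base composition moved with the AT-rich words. GC content averaged 35.8% (SD 7.32) within 100 bp of member summits, against 39.6% in the upstream windows and 45.6% in the downstream windows. TATAAA was at 35.7% of members, against 29.0% upstream and 15.8% downstream, while AATAAT, a word of the same letters, was at 38.7%, against 29.2% and 18.4%. TTTGAA was at 33.2%, against 23.0% and 15.9%, and its shuffled word at 12.7%, against 9.56% and 4.84%. Neither word can therefore be read apart from composition in these windows. Among named members, the strongest with a DRE or a TATAAA was eIF6, the strongest with CGATA was CG14100, the strongest with GGTCACAC was Xbp1, the transcription factor of the unfolded protein response (111 and 73.7, 178 pooled at 172 bp), and the strongest with a Motif 7 core was brwl (186 and 239, 417 pooled at 162 bp). Motif 6 and CHR matches were led by mRpL41, the E-box and TGIF by Hpf1, the initiator by CG31145, GAGAG by papi and E2F by fok (220 and 238, 460 pooled).

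The DRE and Motif 7 were among the elements that were most frequent at members close to the start site. DRE matches were at 12.1% of members within 50 bp, 15.0% at over 50 to 100 bp, 3.32% at over 100 to 200 bp, 1.31% at over 200 to 300 bp, 3.23% at over 300 to 400 bp and 1.22% at over 400 to 500 bp. Motif 7 matches were at 20.9%, 17.7%, 8.49%, 5.24%, 4.84% and 4.88% in the same bins. M1BP (6.59% and 7.08%), BEAF-32 (38.5% and 46.9%) and E-box matches (12.1% and 12.4%) were also most frequent in the bins up to 100 bp. So were Motif 6 and TGIF matches, while TATAAA and GAGAG were least frequent there. At these distances the window around the summit reaches the start site. By signal, from the strongest to the weakest of 4 groups of members of about equal size, the DRE was at 1.75%, 6.61%, 6.58% and 4.85%. The median signal of the 45 members with a DRE was 76.3, against 79.5 for those without.

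The start sites themselves were read from 250 bp before to 50 bp after. The 853 promoters with a member were compared with 8170 one-directional promoters that had no IDR peak and with the promoters of all 13968 genes. The sets were built differently. Member promoters included internal start sites, which held 33.8% of member peaks, while the set of all genes had as many windows as genes. The one-directional set used limits of 1000 bp upstream and 500 bp downstream, while the limit for members was 500 bp from the summit. GAGAG was at 47.9% of member promoters (95% interval 44.6 to 51.3), against 32.4% of one-directional promoters without a peak and 29.8% of all, while its shuffled word AGGGA was at 24.7%, 24.4% and 24.1%. CTCGCTC, the shuffled word of E2F, was also more frequent at member promoters (10.7%, against 5.06% and 4.27%). An excess there was therefore not confined to GAGAG. The E-box was at 19.2%, against 14.8% and 17.7%, and Motif 7 at 15.4%, against 10.8% and 15.6%. The DRE was at 6.33%, against 5.52% and 9.36%, and M1BP at 4.92%, against 4.32% and 7.7%. TATAAA was at 38.1%, against 45.0% and 45.9%. On the sense strand 40 to 15 bp before the start site, where a TATA box works, it was at 3.75% of member promoters (32 promoters), against 9.78% of one-directional promoters without a peak. TCAGT on the sense strand within 5 bp of the start site was at 12.8%, against 9.07%. The GAGA element was thus more frequent at the promoters of members than at both other sets but no more frequent at the summits than in the windows 500 bp upstream. These shares were not tested, nor was the part that the different make-up of the sets plays in them.

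**Figure D4:**
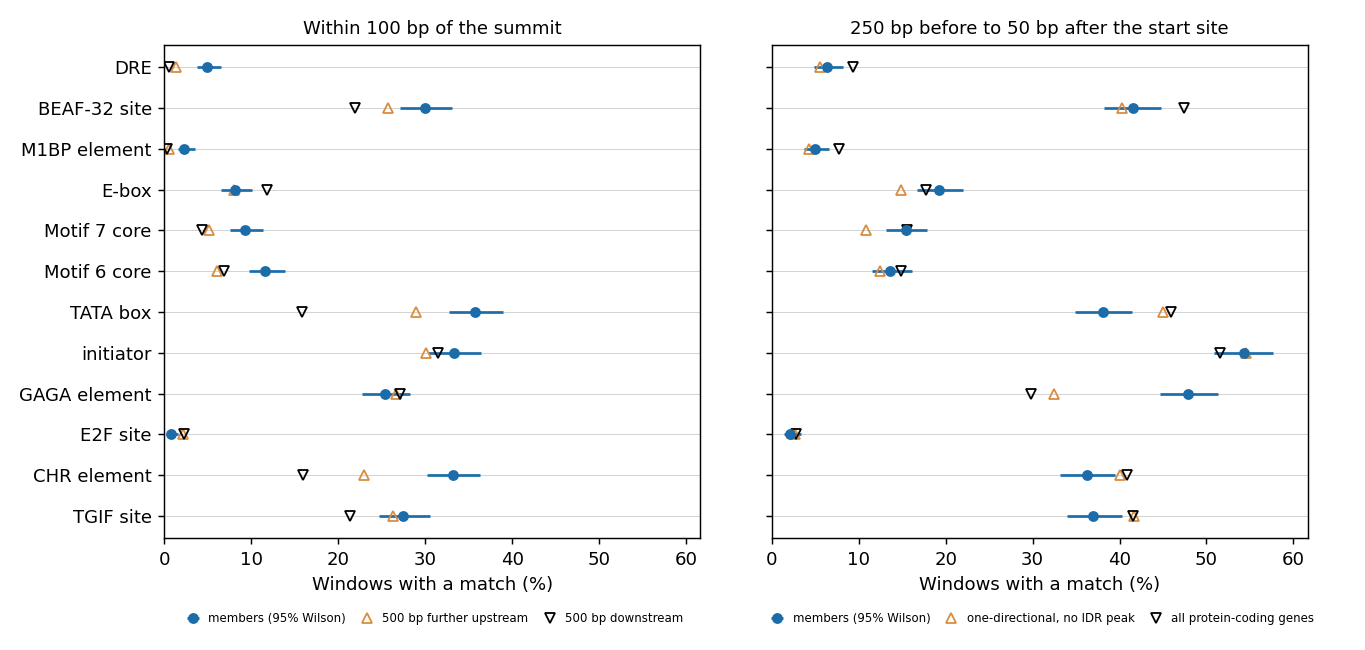
Share of windows with a match to each of 12 elements (horizontal, %), within 100 bp of member summits (left) and from 250 bp before to 50 bp after start sites (right). Filled circles are members with 95% Wilson intervals, and open triangles are the flanking windows on the left and promoters without a peak or all promoters on the right. The GAGA circle at 47.9% on the right stands clear of 32.4% and 29.8%.

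Words of 6 letters with 3 or more G or C were ranked at the 1958 other IDR peaks, by how much more often they occurred within 100 bp of the summit than in the flanks, and were then read at the members, which had not entered the ranking. The leading word was ACAGTG (reverse complement CACTGT), found at 17.0% of members, against 8.13% of their upstream and 8.68% of their downstream windows and 18.1% of the other IDR peaks. The next was ACACTG (reverse complement CAGTGT), at 17.9% of members, against 6.81%, 8.24% and 14.8%. Either word was at 264 members (29.0%), against 13.1% upstream, 14.7% downstream and 28.5% of other IDR peaks. ACACTG overlaps the neighbourhood of the M1BP word in some promoters, as in the printed Rnp4F sequence, and without members that match GGTCACAC the counts were 149 for ACAGTG and 151 for ACACTG. The next words in rank were CACTGA (13.6% of members), ACTGTG (12.1%) and CGATAG (10.9%), and CACTGA and ACTGTG share letters with the leading words. In the printed sequences, CG1635 carries ACAGTG near both ends of its run and CG14100 carries ACACTG on its upstream side.

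Within 100 bp of the summit, the leading words were least frequent in the 50 bp just upstream of it. Either word was centred in the bin from 100 to 51 bp upstream at 9.23% of members, from 50 to 1 bp upstream at 5.38%, from 0 to 49 bp downstream at 9.01% and from 50 to 99 bp downstream at 10.2%. The same bins held it at 8.53%, 6.13%, 7.46% and 11.2% of the other IDR peaks. Bins beyond 300 bp on either side held it at 2.53% to 4.29% of members.

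**Figure D5:**
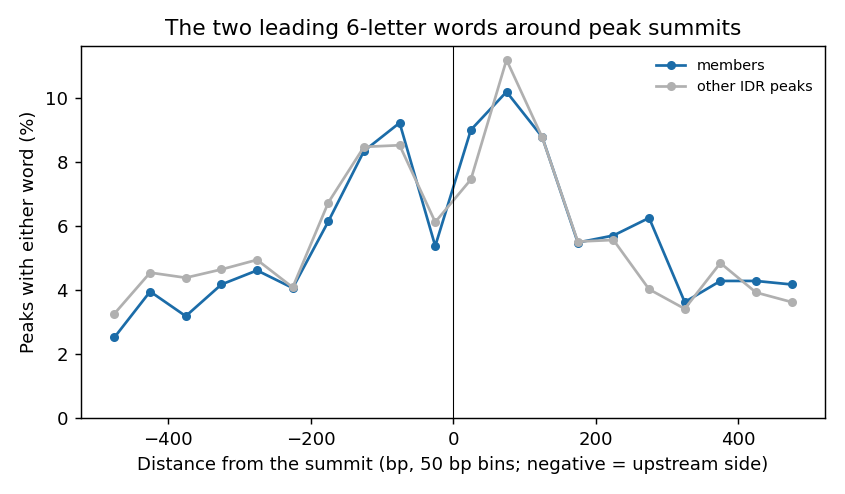
Share of peaks (vertical, %) in which either leading word is centred in each 50 bp bin from the summit (horizontal, bp, negative on the upstream side of the nearest gene), with member peaks in blue and other IDR peaks in grey. Members reach 9.23% and 10.2% on the sides, with 5.38% in the bin just upstream of the summit and 9.01% in the bin that starts at it.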

How the data were processed

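The deposited files were narrowPeak lists on dm6 from 2 biological replicates of 1 group: 30000 regions per replicate and for the pooled data, background included, and 1 list of IDR peaks made from replicate and control libraries. The signal per region and the −log10 q-value were deposited by the authors. Coordinates deposited by the authors are 0-based and are given 1-based here. The aligner, the peak caller, their versions and the number of reads are absent from the labels and headers used here, so depth is unknown and intervals cover counting error only. Replicate numbers say no more than that the samples were separate biological replicates. Of the IDR peaks, 2590 were 430 bp wide, so summits were used. The members and lists were chosen with earlier results of these data known.

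Start sites were the 19630 of 13968 protein-coding genes in Ensembl release 115, whose assembly is the Release 6 genome that dm6 names. All regions lay within its arms. Products and sequence came from RefSeq's copy of that release, and all 797 member genes had a product. A member was matched to a replicate region by summits within 100 bp. Motifs were searched as words on both strands. Each of the 33 gene lists was counted by symbol, and 10 symbols were not found. Regions are not replicates, so no test was made: counts, medians and Wilson or exact binomial 95% intervals are given beside those of all peaks or genes. Where 0 were found, the share allowed is 3 divided by the total.

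Named genes followed a rule: the 12 strongest members, the 2 strongest per distance bin, up to 2 strongest per gene list, the peaks nearest the limits, the 3 strongest not matched in both replicates, the 3 of widest replicate ratio, the genes with most member peaks and the strongest member with each motif. The remaining ribosomal, clock and Rtnl1 values, the 4 genes whose summit lay on the start site and the neighbours of the opposite-strand limit were named outside it, after their values were seen. Alternatives were other windows, filters, start site sets, matching distances and single replicates. The code was tested on simulated data. The tools were scipy 1.17.1, matplotlib 3.10.9, pandas 2.3.3 and numpy 2.4.6 under Python 3.11.15.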

Additional observations from a re-analysis of the deposited data

How the results depend on the processing

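With the 1434 strongest IDR peaks the members numbered 497 at 455 genes, with a median signal of 135, 93.2% matched in both replicates and 100% with a false discovery rate of 5% or less. Peaks filtered to 5% or less gave 606 members, with a median signal of 115 and 91.9% matched. Within 200 bp there were 475 members at 460 genes, with a median distance of 112 bp. The median distance was 220 bp within 1000 bp and 178 bp with 1 start site per gene. The shifts in number and signal with filters on strength, and in number and distance with the window, follow from the filters themselves. Why the median distance changed with 1 start site per gene was not tested. The matched share was 97.0% within 300 bp and 63.7% within 50 bp. The number of motifs, of 12, that were more frequent at members than at all IDR peaks was 7. Around start sites, against all promoters, it was 3. Members are a part of all IDR peaks, and some margins were small, such as 33.3% against 33.1% for the initiator. Taking the 2868 strongest regions of a single replicate gave 873 to 916 members at 768 to 822 genes, median distances of 180 to 190 bp, median signals of 41.8 to 44.6 on the scale of a single list, 77.3% to 80.2% matched, 63.9% to 70.6% with a false discovery rate of 5% or less, and 8 motifs in both. Over all results and settings, 52 of the main values stayed and 21 moved, and of the single list and motif values 378 stayed and 96 moved, where a count stayed if it was within 1.5 times the reported one and a share or median if it was within its 95% interval. By that measure 643 members at 600 genes, with 1 start site per gene, and 552 genes, with a false discovery rate of 5% or less, count as stayed. No paired analysis was possible because the study has 1 group. The signal could be judged against no read depth, and 304 members above a false discovery rate of 5% are the least certain.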

Other observations

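Some genes of glycolysis were noticed among the strong members, and the list was drawn up only after their values were seen. Of 14 genes of glycolysis 4 had a member peak (28.6%), and these were Gapdh2 (replicate signals 321 and 300, 626 pooled, 165 bp upstream, on X from 15867791 to 15868165), Eno, the enolase (272 and 265, 541 pooled, 191 bp, on 2L from 1727728 to 1728089), Hex-A, the hexokinase (167 and 188, 355 pooled, 175 bp, on X from 9585432 to 9585655), and Ldh, lactate dehydrogenase (79.5 and 56.6, 139 pooled, 184 bp, on 3L from 6262663 to 6263092). The Ldh peak was below the members' upper quartile of 143. All 4 summits lay between 165 and 191 bp upstream. The other 10, among them Gapdh1, Pfk and PyK, had no IDR peak within 500 bp of a start site. Since the list was drawn up from the values, its share carries no weight beside the 5.71% of all genes.

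A word of 8 letters, TGGGCGTA, was noticed while the sequences of the strongest members were read. It was within 100 bp of the summit at 5 members, CG14100, CG31145, Ugalt, Best2 and SP2353, which ranked 1, 4, 7, 160 and 202 of 910 by signal, so 3 of the 25 strongest had it. The same word was in 2 of the upstream and 5 of the downstream windows of the members and at 12 of the 1958 other IDR peaks. In windows from 250 bp before to 50 bp after start sites it was in 7 of 853 member promoters (0.821%), against 42 of 8170 one-directional promoters without a peak (0.514%) and 71 promoters of all genes (0.508%). It was picked from these peaks, so these shares carry no weight.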
